A study of Mus musculus with 3 samples.

Results

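The iron–sulfur cluster assembly factors measured here were 9 nuclear genes whose proteins build and deliver iron–sulfur (Fe–S) clusters in mitochondria: Nfs1, Lyrm4, Iscu, Hscb, Glrx5, Isca1, Isca2, Nfu1 and Bola3. They were chosen by name, as every probe set (a group of short probes against 1 transcript) that the array annotation assigns to 1 of these symbols alone. This gave 15 probe sets for the 9 genes, among 34945 probe sets with a single symbol that covered 18193 genes in all. Each gene is given on its brightest probe set, the one with the highest mean log2 signal, and the other 6 probe sets serve as a check. Gastrocnemius muscle was taken from male C57BL/6J mice fed a high-fat diet (60% kcal fat) to which sodium ferrous citrate, a ferrous iron supplement, was added at 0.023% by weight (HF + SFC), the high-fat diet alone (HF, 60% kcal fat) or a control diet (Control, 10% kcal fat), which also differs from the high-fat diet in carbohydrate. The diets began at 6 weeks of age and lasted 15 weeks, while the age label of all 3 samples reads 21 months. Each group was measured on 1 Affymetrix array of a mix of the cDNA of all its samples, 3 arrays in all. Differences between groups therefore could not be tested or checked against replicates, and the number of mice in each mix is not given in the sources used here.

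Fe–S clusters are small inorganic cofactors of iron and sulfide that carry electrons in respiratory chain complexes and take part in catalysis in enzymes such as aconitase and lipoyl synthase. In mitochondria, the cysteine desulfurase Nfs1, held stable by the small protein Lyrm4, supplies sulfide, and a first cluster is put together on the scaffold protein Iscu. The co-chaperone Hscb, with an Hsp70 partner, helps to hand that cluster over to the glutaredoxin Glrx5. Isca1 and Isca2 then act in forming cubane-type clusters, and Nfu1 and Bola3 bring these to particular recipients, lipoyl synthase among them. In humans, loss of ISCU function is known for a myopathy with lactic acidosis, and loss of NFU1 or BOLA3 for multiple mitochondrial dysfunctions syndrome.

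The arrays read as skeletal muscle. All 9 listed markers of muscle fibres had signals of 27999 or more on each array. Of 5 hepatocyte markers, Apoa1, Ttr, Alb and Hamp had at most 101, and Cyp2e1, which other tissues also express, had 481 in HF + SFC, 626 in HF and 592 in Control. The array medians were 68.03 in HF + SFC, 67.39 in HF and 63.63 in Control, in MAS5 units, the linear signal that the authors scaled to a common mean. RNA integrity, read as the signal of a control probe set at the 3' end over that at the 5' end, gave 1.15 in HF + SFC, 1.52 in HF and 1.09 in Control for beta-actin. For Gapdh it gave 0.82 in HF + SFC, 0.832 in HF and 0.842 in Control. The brightest probe set of each assembly factor lay well above these medians on every array, with the lowest value at 433.

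The sulfide supply pair went in different directions. Nfs1 had signals of 3818 in HF + SFC, 3979 in HF and 4173 in Control, and was thus highest in Control and lowest in HF + SFC. Lyrm4, which stabilizes Nfs1, had 730 in HF + SFC, 713 in HF and 631 in Control, the reverse order. On these brightest probe sets, neither partner differed by more than 1.16-fold between any 2 arrays. A second probe set of Nfs1 gave another order, with 629 in HF + SFC, 735 in HF and 645 in Control.

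Iscu and Hscb, the scaffold and the co-chaperone that acts on it, were both lowest on the HF array. Iscu had 9718 in HF + SFC, 8300 in HF and 9057 in Control. Hscb had 518 in HF + SFC, 433 in HF and 532 in Control. Over the 3 arrays the highest signal exceeded the lowest by 22.7% for Hscb and by 17.1% for Iscu, against 6.6% to 15.6% for the other 7 factors. Each of these genes has a single probe set, so no second reading of the same transcript bears on their values.

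**Figure D1:**
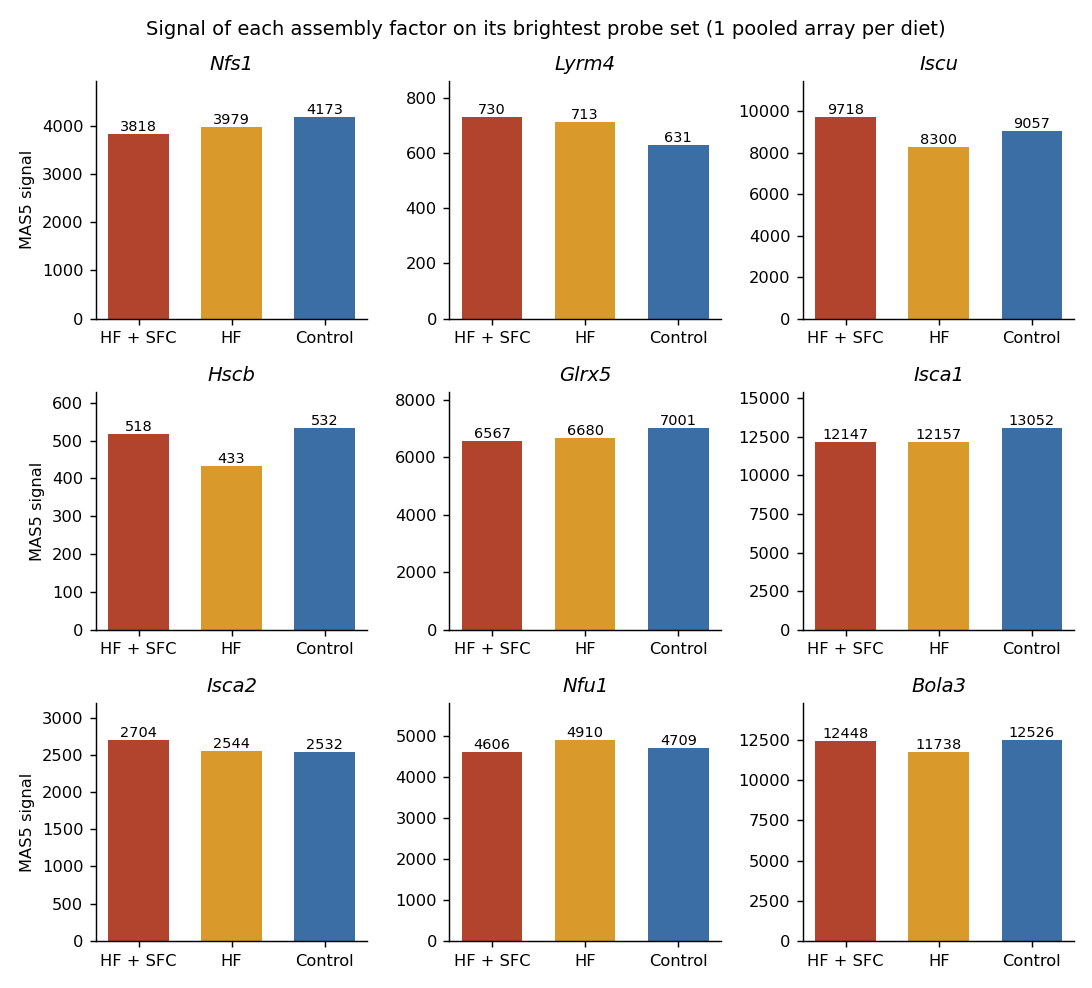
Signal in MAS5 units (linear axis from 0) of each of the 9 assembly factors on its brightest probe set, 1 bar for each pooled array, in HF + SFC, HF and Control. There are no error bars because each group has 1 array. Hscb (518 in HF + SFC, 433 in HF, 532 in Control) and Iscu (9718 in HF + SFC, 8300 in HF, 9057 in Control) are lowest on the HF array, while the other factors stay within 15.6% across diets.

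Glrx5, the carrier that receives clusters from the scaffold, had 6567 in HF + SFC, 6680 in HF and 7001 in Control. Isca1 had 12147 in HF + SFC, 12157 in HF and 13052 in Control, so that both high-fat arrays lay below Control. Its partner Isca2 had 2704 in HF + SFC, 2544 in HF and 2532 in Control, with the 2 arrays without iron supplement almost level. The Isca2 ratio of HF + SFC to HF was 1.06, on the only probe set of the gene.

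Of the late delivery factors, Nfu1 had 4606 in HF + SFC, 4910 in HF and 4709 in Control, the only 1 of the 9 genes with its highest signal on the HF array. Bola3 had 12448 in HF + SFC, 11738 in HF and 12526 in Control. The HF reading of Bola3 was thus the lowest, and the highest exceeded it by 6.71%.

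The HF + SFC and HF arrays ask what iron added to the high-fat diet changed in muscle. For 5 of the 9 factors the HF + SFC signal exceeded the HF signal (Iscu, Lyrm4, Hscb, Isca2 and Bola3) and for 4 it was lower (Nfs1, Glrx5, Isca1 and Nfu1), where 51.4% of all genes were higher and 48.6% lower. Their median log2 ratio was 0.03 (1.02-fold), against 0.01 over all genes. The largest ratios were those of Hscb at 1.2-fold and Iscu at 1.17-fold (log2 ratios 0.26 and 0.23), and the lowest was that of Nfu1 at 0.938-fold. No factor reached 1.5-fold, the fold threshold used here, which 27.2% of all genes did in either direction. Among the 6707 genes whose mean log2 signal exceeded the 75th percentile of all probe sets, the share was 0.939%. Among 2122 genes with mean signals of 2000 to 16000, the range that holds 7 of the factors, the middle 50% of the log2 ratios ran from -0.07 to 0.10, and 95.1% of these genes had a lower ratio than Iscu. Among 1976 genes at 400 to 800, 90.1% had a lower ratio than Hscb. In the same comparison all 26 markers of general, fast and slow muscle fibres were higher on the HF + SFC array, at a median of 0.25 (log2). Their summed signals were 957349 in HF + SFC and 809255 in HF. The 8 markers listed as slow had a median of 0.42. They include Myh2, the myosin of fast type IIA fibres, at 0.22. After quantile normalization, 8 of 9 general, 5 of 9 fast and 8 of 8 slow fibre markers were higher. The median of the general markers was then 0.05 in place of 0.21, that of the fast markers 0.03 in place of 0.22 and that of the slow markers 0.40. Of 23 markers of adipocytes, fibroblasts and leukocytes, 15 were lower in HF + SFC, at a median of -0.07 (6 in place of 5 of the 8 leukocyte markers were lower with median centring). Of the 8 adipocyte markers, 5 were lower in HF + SFC and 3 (Retn, Lpl and Pck1) were higher. Those past 1.5-fold, all lower, were Adipoq (2915 in HF + SFC and 4637 in HF), Lep (387 in HF + SFC and 592 in HF) and Cidec (432 in HF + SFC and 689 in HF). The 3' over 5' signal of beta-actin was 1.15 in HF + SFC and 1.52 in HF. The part of these differences in the Iscu and Hscb values was not tested, and in bulk tissue fewer cells of a type and less RNA per cell cannot be told apart.

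**Figure D2:**
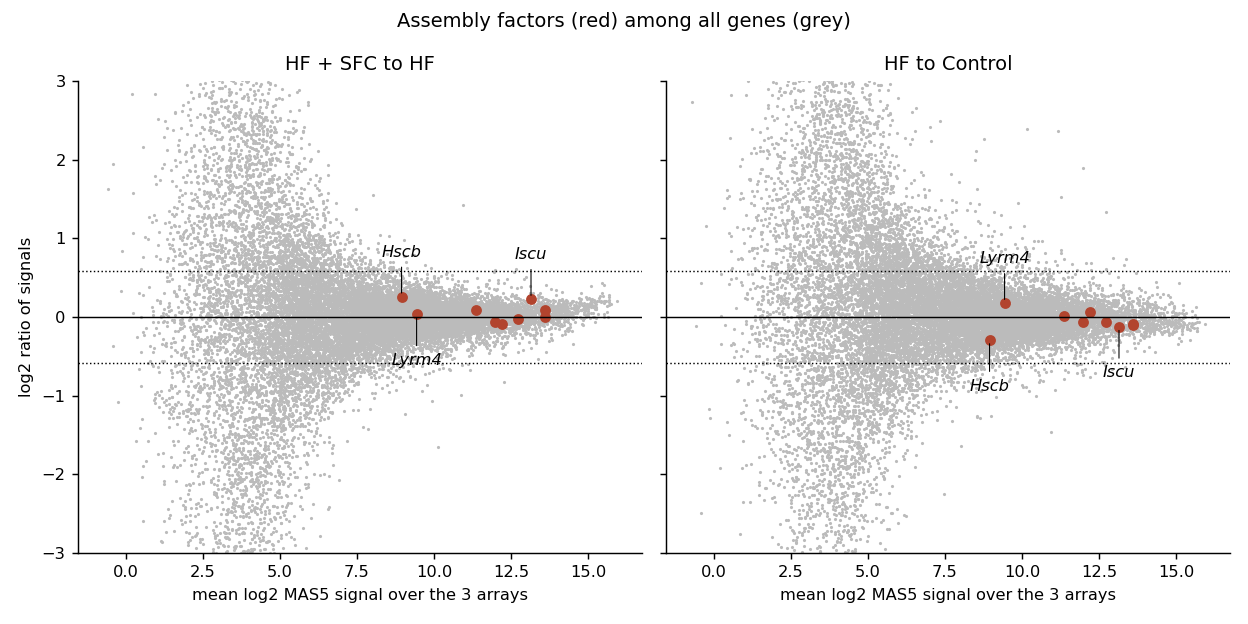
Log2 ratio of signals (HF + SFC to HF on the left, HF to Control on the right) against the mean log2 MAS5 signal over the 3 arrays for 18193 genes in grey and the 9 assembly factors in red, with dotted lines at 1.5-fold. Grey points fan out at low signal, all red points lie between the dotted lines, and 904 genes lie beyond 3 on the log2 axis in at least 1 panel and are not drawn there.

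HF against Control sets the high-fat diet against the low-fat diet. Here 6 of the 9 factors were lower in HF (Nfs1, Iscu, Hscb, Glrx5, Isca1 and Bola3) and 3 higher (Lyrm4, Isca2 and Nfu1), where 49.3% of all genes were lower and 50.7% higher. The median for the factors was -0.07 on the log2 scale (0.954-fold), and that for all genes was 0.01. When each array was centred on its own median, 8 factors were lower and 1 was higher, and the share of all genes that were higher was 41.8%. Hscb had the lowest ratio at 0.815-fold, followed by Iscu at 0.916-fold, and Lyrm4 had the highest at 1.13-fold. None of the 9 reached 1.5-fold, against 29.3% of all genes and 2.59% of those above the 75th percentile of signal. Among genes of similar signal, 6 of the 9 log2 ratios were within the middle 50%, with Hscb, Iscu and Lyrm4 outside it and all 9 within the 5th to 95th percentile. In this comparison 25 of 26 fibre markers were lower in HF, with summed signals of 809255 in HF and 900810 in Control. The markers listed as slow had a median log2 ratio of -0.44, with Myh2 at -0.11. After quantile normalization, 6 of 9 general, 6 of 9 fast and 8 of 8 slow fibre markers were lower, and the medians were -0.04 in place of -0.11 for general, -0.07 in place of -0.14 for fast and -0.41 for slow markers. Markers of adipocytes, fibroblasts and leukocytes were higher for 20 of 23 genes, at a median of 0.39 and summed signals of 104457 in HF and 89698 in Control, and with median centring 5 of the 7 fibroblast markers were higher. The 8 adipocyte markers alone had a median of 0.97, and 5 of them were at least 1.5-fold higher in HF and 1 at least 1.5-fold lower. Among these, Lep was 12.9-fold higher (592 in HF and 45.8 in Control, which is below the array median), Adipoq 5.15-fold (4637 in HF and 901 in Control) and Cidec 4.33-fold (689 in HF and 159 in Control). For beta-actin the 3' signal exceeded the 5' signal by a factor of 1.52 in HF and 1.09 in Control. Whether these differences enter the values of the assembly factors was not tested.

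HF + SFC against Control takes both diet changes together and does not use the HF array. Of the 9 factors, 3 were higher in HF + SFC (Lyrm4, Iscu and Isca2) and 6 lower (Nfs1, Hscb, Glrx5, Isca1, Nfu1 and Bola3), where 52.4% of all genes were higher and 47.6% lower. The factors had a median of -0.03 on the log2 scale (0.978-fold), and all genes one of 0.02. With arrays centred on their medians, 2 factors were higher and 7 lower, and 40.1% of all genes were higher. The ratios ran from 0.915-fold for Nfs1 to 1.16-fold for Lyrm4. Hscb, at 518 in HF + SFC and 532 in Control, was almost level at 0.974-fold. None reached 1.5-fold, which 29% of all genes and 1.98% of those above the 75th percentile of signal did. Only 3 of the 9 (Hscb, Nfu1 and Bola3) were within the middle 50% of genes of similar signal, and all 9 were within the 5th to 95th percentile. The 26 fibre markers had summed signals of 957349 in HF + SFC and 900810 in Control, and the 23 markers of adipocytes, fibroblasts and leukocytes 103149 in HF + SFC and 89698 in Control. Of the 8 adipocyte markers, 6 were higher and 2 lower in HF + SFC, at a median of 0.79 on the log2 scale. Adipoq was at 2915 in HF + SFC and 901 in Control. The part of these markers in the values of the factors was not tested.

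Both the comparison of HF + SFC with HF and that of HF with Control use the HF array, so 1 low reading there moves both in opposite directions. The 3 factors lowest in HF were Iscu, Hscb and Bola3, and Nfs1, Glrx5 and Isca1 were lowest in HF + SFC and highest in Control, although the Isca1 signals in HF + SFC and HF were almost level. Lyrm4 and Isca2 were highest in HF + SFC and lowest in Control, and Nfu1 was highest in HF. The assembly factors thus showed no common order of the 3 diets. The shares of all genes with each order are not given here, so these counts are not read as a trait of the factors.

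For 4 of the genes a second probe set above the array medians gave another reading of the same RNA mixes. On HF + SFC against HF, its direction matched that of the brightest probe set for Nfs1 alone (0.857-fold, against 0.96-fold on the brightest). The second probe set of Isca1 read 4006 in HF + SFC, 3846 in HF and 4012 in Control, a ratio of HF + SFC to HF of 1.04, against 0.999 on the brightest. That of Nfu1 read 2877 in HF + SFC, 2715 in HF and 3078 in Control, a ratio of 1.06 against 0.938, so that the HF array was the lowest on this probe set and the highest on the other. That of Bola3 read 410 in HF + SFC, 470 in HF and 533 in Control, a ratio of 0.874 against 1.06. The 2 readings of 1 gene thus differed by up to 0.28 on the log2 scale in this comparison (Bola3), more than the log2 ratio of Hscb or Iscu. On HF against Control, direction matched for Isca1 and Bola3, and not for Nfu1 or for Nfs1, whose second probe set read 629 in HF + SFC, 735 in HF and 645 in Control. On HF + SFC against Control, the 2 brightest probe sets of all 4 genes were lower in HF + SFC, with the lowest ratio, 0.77-fold, on the second probe set of Bola3. The remaining 2 probe sets were far below the array medians. That of Bola3 read 3.62 in HF + SFC, 3.39 in HF and 3.03 in Control, and that of Nfs1 read 3.97 in HF + SFC, 3.03 in HF and 19.7 in Control. The Nfs1 reading was the only value among the 15 probe sets past 1.5-fold, at 0.154-fold in HF and 0.202-fold in HF + SFC relative to Control.

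**Figure D3:**
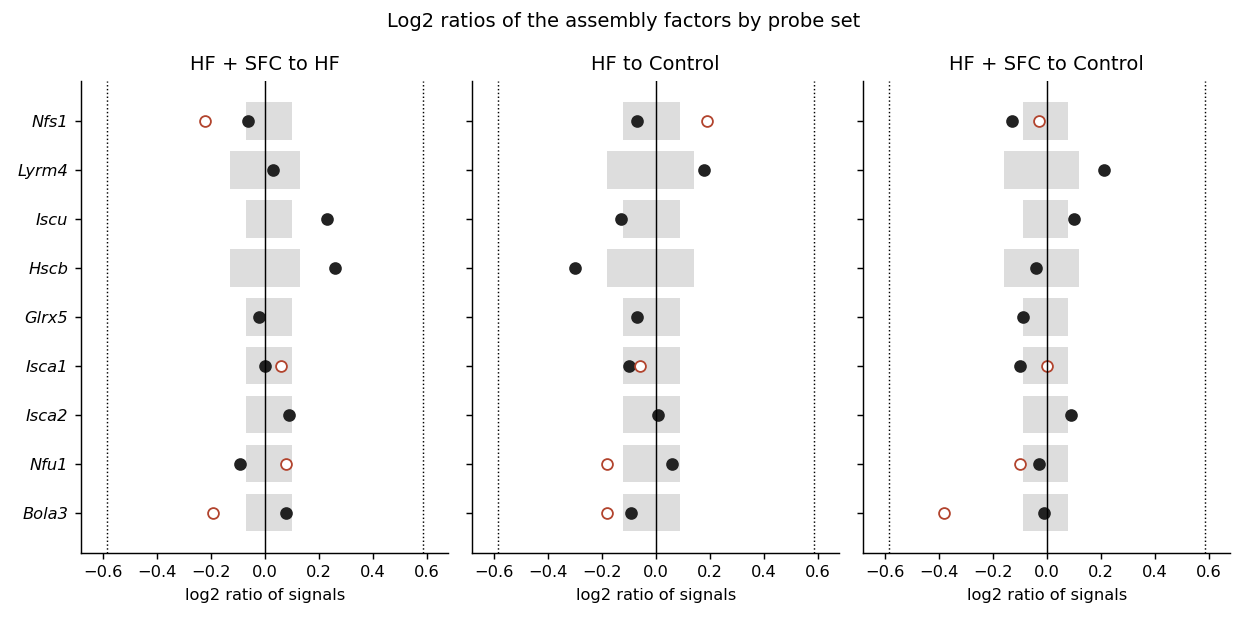
Log2 ratio of signals for each assembly factor in the 3 comparisons, with filled points for the brightest probe set and open points for a second probe set above the array medians. Grey bars span the middle 50% of all genes of similar signal and dotted lines mark 1.5-fold. Filled and open points lie on opposite sides of 0 for Nfu1 and Bola3 on HF + SFC to HF, where the filled point of Isca1 lies at 0. The 2 probe sets far below the array medians are not drawn.

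The neighbouring genes of the pathway were read from lists of the same kind. Other mitochondrial genes of cluster assembly and iron import were brighter in HF + SFC than in HF for 9 of 11 (median 0.06, log2). With arrays centred on their medians they were brighter for 7 of 11. The share of all genes that were higher was 51.4%, and 49.6% with this centring. Bola1, a further protein acting on mitochondrial clusters, had 1357 in HF + SFC and 1072 in HF (1.27-fold), and Iba57, a partner of Isca1 and Isca2, had 510 in HF + SFC and 542 in HF (0.94-fold). Bola1 was picked in the study from these arrays, so its direction is not independent evidence. The paper counts Bola1 among mitochondrial genes that passed a 1.5-fold cutoff in both tissues, muscle and liver. The muscle value of 1.27-fold here, on 1 probe set chosen by brightness, falls short of that cutoff. The reason for this difference was not tested. In HF against Control 4 of the 11 were higher, where 50.7% of all genes were, and 1 of 11 with median centring, where 41.8% were. The list's ends were the mitochondrial iron importers Slc25a37 (720 in HF and 586 in Control) and Slc25a28 (1419 in HF and 1784 in Control). Genes of the cytosolic assembly machinery, which makes clusters for cytosolic and nuclear proteins, were lower in HF + SFC than in HF in 8 of 10 cases, with a median of -0.12. Of all genes, 48.6% were lower. Among the cytosolic assembly genes the scaffold gene Nubp1 was highest (301 in HF + SFC and 256 in HF). The glutaredoxin gene Glrx3 was lowest (59.6 in HF + SFC and 71.3 in HF, near the array medians). Ciao2a, which acts late in this machinery in delivering clusters, had 6805 in HF + SFC, 7923 in HF and 6593 in Control, the highest ratio of that list in HF against Control, where Ciao3 had the lowest (1025 in HF and 1236 in Control). No gene of either list reached 1.5-fold in either direction in any of the 3 comparisons. Of all genes, 27.2% did for HF + SFC to HF, 29.3% for HF to Control and 29% for HF + SFC to Control. Among genes above the 75th percentile of signal the shares were only 0.939%, 2.59% and 1.98%, in the same order.

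The recipients of the clusters in mitochondria were brighter in HF + SFC than in HF in 10 of 13 cases (median 0.06, log2). Of all genes, 51.4% were brighter. Cisd1, an outer membrane protein that binds a cluster, had 20622 in HF + SFC and 17736 in HF, and Mocs1, of molybdenum cofactor synthesis, had 49.8 in HF + SFC and 91.7 in HF, which is near the array medians and was the only gene of the list past 1.5-fold in this comparison. In HF against Control 11 of 13 recipients were lower, with a median of -0.11, where 49.3% of all genes were lower. The lowest recipient was the tRNA-modifying enzyme Cdk5rap1 (446 in HF and 659 in Control). After quantile normalization, 8 of the recipients had higher and 4 had lower signals in HF + SFC relative to HF, and 9 were lower in HF than in Control. Lipoyl synthase (Lias), which is served by Nfu1 and Bola3, had 3679 in HF + SFC, 3523 in HF and 3992 in Control. The list of lipoate attachment and lipoylated proteins, which includes Lias, was brighter in HF + SFC than in HF in 7 of 8 cases (6 of 8 with arrays centred on their medians), with a median of 0.05, from Lipt2 (560 in HF + SFC and 627 in HF) to Lipt1 (382 in HF + SFC and 344 in HF). In HF against Control 6 of the 8 were lower, from Lias to Pdhx (2525 in HF and 2352 in Control). Of the extramitochondrial Fe–S proteins, 13 of 20 were brighter in HF + SFC than in HF. In this list 3 higher and 1 lower gene passed 1.5-fold, where 27.2% of all genes did in either direction. The higher ones were Mutyh, Pole (125 in HF + SFC and 72.8 in HF) and Prim2 (110 in HF + SFC and 63.5 in HF). The HF signals of these higher genes were near the array medians. Among listed genes above the median signal, Ercc2, a helicase, had the lowest ratio (174 in HF + SFC and 278 in HF). The repair enzyme Mutyh had the highest (142 in HF + SFC and 72 in HF). Aco1, which becomes an iron-sensing RNA-binding protein when it lacks its cluster, had 1692 in HF + SFC, 1811 in HF and 1497 in Control. In HF against Control it was the highest of that list among genes above the median signal, at 1.21-fold. Brip1 and Dph1, which were below that median, had higher ratios. The DNA polymerase gene Pole was lowest (72.8 in HF and 134 in Control). In HF + SFC against Control, signals were higher for 7 of 11 other mitochondrial assembly genes, 2 of 10 cytosolic assembly genes, 5 of 13 mitochondrial recipients, 2 of 8 lipoate genes and 10 of 20 extramitochondrial Fe–S proteins. Of all genes, 52.4% were higher. With arrays centred on their medians the counts for these lists were 4, 0, 2, 2 and 9, and 40.1% of all genes were higher.

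**Figure D4:**
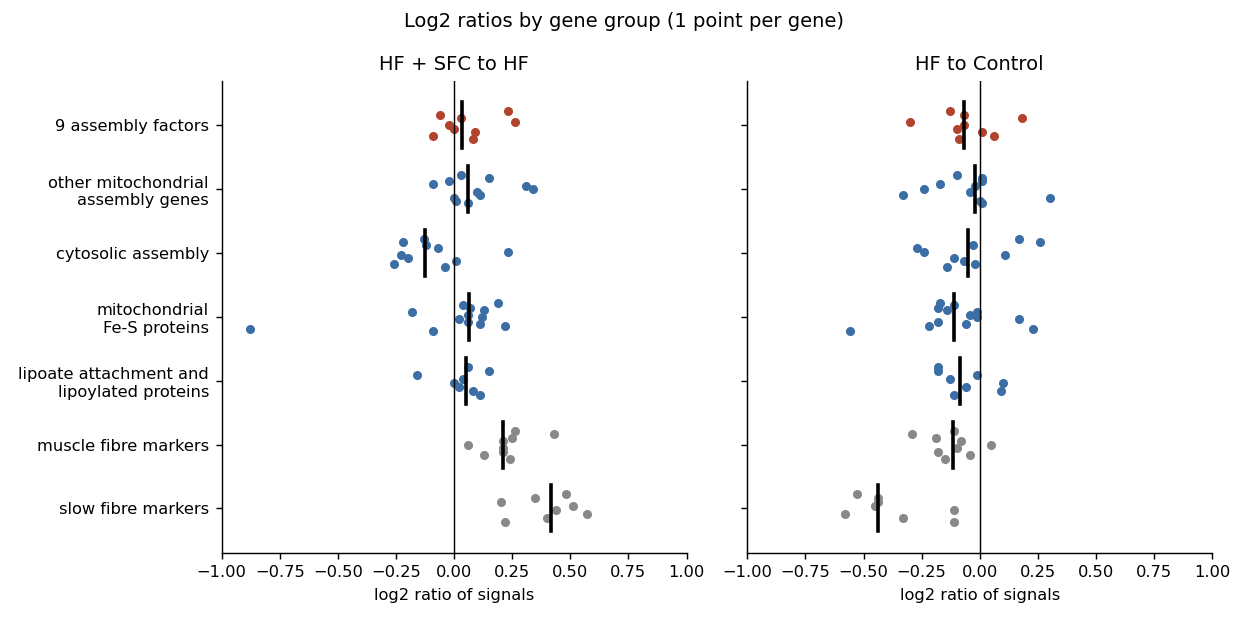
Log2 ratio of signals for each gene (1 point per gene, black bar at the group median) in the 9 assembly factors, 4 related groups and 2 groups of muscle fibre markers, for HF + SFC to HF on the left and HF to Control on the right. Group medians on the left run from -0.12 for cytosolic assembly to 0.42 for slow fibre markers, with the assembly factors at 0.03. The slow fibre group includes Myh2 of fast type IIA fibres.

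The median ratios of the 9 factors, both close to 1, were shared by many other genes on the arrays. By the distance of both log2 ratios (HF + SFC to HF and HF to Control) from the medians of the factors, over the 3 arrays, the nearest bright genes were Tasor2 (638 in HF + SFC, 622 in HF and 652 in Control), Psmb3 (5723 in HF + SFC, 5583 in HF and 5873 in Control) and Ankrd28 (2194 in HF + SFC, 2152 in HF and 2255 in Control). In all, 393 of 6698 bright genes lay within a distance of 0.05.

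RefSeq promoter windows, from 250 bases before to 50 after a start site, matched 7 of the 9 genes on GRCm38.p6. Those of Isca1 and Isca2 are shown because these partners in cubane cluster formation differed in their order of the 3 diets on their brightest probe sets. The Isca1 order rests on 12147 in HF + SFC against 12157 in HF, and its second probe set gave another order. A link between the windows and the signals was not tested. The Isca1 window is chr13:59769740-59770039 on the minus strand and the Isca2 window is chr12:84773020-84773319 on the plus strand. Capitals mark every match, on either strand, to GCGCA, any base, then GCGC (a core bound by NRF1), CCGGAAG (ETS factors such as GABP), AAGATGGCG (YY1) or CCAAT, none of which overlap here.
Isca1: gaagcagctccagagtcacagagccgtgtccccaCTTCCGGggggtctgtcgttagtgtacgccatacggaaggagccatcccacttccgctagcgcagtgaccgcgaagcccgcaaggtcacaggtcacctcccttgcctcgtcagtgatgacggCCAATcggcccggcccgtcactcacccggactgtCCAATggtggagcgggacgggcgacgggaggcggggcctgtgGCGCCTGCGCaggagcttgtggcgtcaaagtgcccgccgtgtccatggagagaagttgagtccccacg
Isca2: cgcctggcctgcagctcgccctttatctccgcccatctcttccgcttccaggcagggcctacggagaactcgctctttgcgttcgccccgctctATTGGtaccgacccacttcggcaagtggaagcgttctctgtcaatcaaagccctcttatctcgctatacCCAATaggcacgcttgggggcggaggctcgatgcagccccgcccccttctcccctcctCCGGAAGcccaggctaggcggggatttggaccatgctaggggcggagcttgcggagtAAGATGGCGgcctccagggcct
The NRF1 core was found in the windows of Isca1 and Nfu1 and in 4.6% of all 32851 windows, and the ETS core in those of Isca1, Isca2 and Nfs1 and in 8.86% of all. The YY1 core was found in that of Isca2 and in 1.4% of all. The CCAAT box was found in 6 of the 9 windows of these genes and in 37.4% of all windows. Those 6 windows came from 5 of the 7 genes, and Bola3 has several windows. A match describes the letters only, and binding was not measured here.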

How the data were processed

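Gastrocnemius RNA of the HF + SFC, HF and Control groups was measured on Affymetrix GeneChip Mouse Genome 430 2.0 arrays, 1 array of mixed samples per group. For 45101 probe sets the deposited values were linear MAS5 intensities, which the authors had scaled (mean 500 on every array after trimming 2% at each end). The submitters' processing notes name MAS5, with no version, and a genome build is not given in the sources used here. Gene names came from the array annotation, and 34741 of the 34945 probe sets with 1 symbol were matched by gene ID to current RefSeq symbols (GRCm38.p6). Of the other probe sets, 64 were controls, 932 had several symbols and 9160 had none. Log2 ratios were taken with no offset. All 9 members were named, and in each other list the highest and lowest ratios among genes above the median signal. Nearest patterns were the 3 other genes above the 75th percentile of signal with the smallest distance to the members' median ratios. This percentile was taken over all probe sets. Signal bands and promoter motifs were chosen after seeing the values. The members and lists were chosen with earlier results of these data known. Some listed genes were not analysed here. With 1 sample per group, no test was run. The ratio and count steps were tested on simulated data. Alternatives were other choices of probe set, quantile normalization or median centring of the arrays, 50 added to signals, low signals left out and a 2-fold threshold. Python 3.11.15, numpy 2.4.6 and pandas 2.3.3 were used. Precision is limited by the 3 arrays.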

Additional observations from a re-analysis of the deposited data

How the results depend on the processing

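No paired analysis was possible because each group has 1 array. The median log2 ratio of the 9 factors kept its sign in all 3 comparisons under each of the 7 alternatives run on it, and moved by at most 0.1. Leaving out low signals, or probe sets whose names end in _x_at or _s_at, left the values of all 9 factors unchanged. Those alternatives could therefore not move the median. With arrays centred on their medians, 1 factor in place of 3 was higher in HF than in Control, while the share of all genes that were higher was 41.8% in place of 50.7%. The count of factors at 1.5-fold or more was 1 in place of 0 for HF against Control and for HF + SFC against Control, both with the average over a gene's probe sets and when any probe set counted, and the gene was Nfs1 through its dimmest probe set. That count was 0 for HF + SFC against HF under every alternative run. Among single factors, the sign changed in 6 of 63 values for HF + SFC against HF, 5 of 63 for HF against Control and 1 of 63 for HF + SFC against Control. These changes were those of Nfs1, Isca1, Nfu1 and Bola3 with other probe sets, and of Isca2 and Nfu1 with median centring. Iscu, Hscb, Lyrm4 and Glrx5 kept their signs under all of these alternatives. Their single probe sets leave out the choice of probe set. The 63 values of each comparison include those that an alternative could not move, so the counts of sign changes understate the dependence on processing. With 1 array per group, differences of the size seen here cannot be told apart from differences between arrays.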
